A study of Mus musculus with 10 samples.

Results

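The 4 Array B cards of the study, of 10 samples in all, compared miRNA measurement with and without pre-amplification of the cDNA. They were chosen by their labels, 2 cards with pre-amplification (Amp1 and Amp2) and 2 without it (NonAmp1 and NonAmp2). All 4 carried total RNA of proliferating C2C12 cells, a mouse myoblast line from C3H muscle kept in growth medium with serum, and every sample of the series was an aliquot of this RNA. The other 6 samples were 4 cards of a different assay set (Array A) and 2 microarrays. The cards repeat 1 RNA of 1 cell line, so their spread is technical and says nothing of differences between cultures.

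MiRNAs are short RNAs cut from a hairpin, and each hairpin can release a strand from either arm. The strand that was rarer when the hairpin was named carries a star, and Array B holds many of these star strands beside miRNAs found late in cloning. In the assay, a stem-loop primer specific to the 3′ end of each miRNA primes reverse transcription and a fluorescent probe follows the PCR. The Ct is the cycle at which fluorescence crosses a threshold, so a lower Ct means more template. Pre-amplification copies the whole pool of cDNAs with a mixture of specific primers before the card is loaded, and every assay then crosses the threshold earlier. Relative levels are kept when all assays move by the same number of cycles, and that was the question of this comparison.

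Each card held 7 control assays and 209 miRNA assays. Mouse sequences were the target of 182 and rat sequences (named rno-) of 27, and all but 80 of the 209 were for star strands. A miRNA counted as detectable in a condition at a mean Ct of 35 or less over its 2 cards, and an undetermined well stood at 40. Of the 209 miRNAs, 60 were detectable in both conditions, 49 with pre-amplification only, 100 in neither and 0 without it only. The myoblast label was checked against muscle miRNAs. MiR-206, made in skeletal muscle and few other tissues, was the second most abundant miRNA with pre-amplification, at Ct values of 17.38 and 17.72 with and 26.17 and 25.72 without it. The assays for miR-133a* and rno-miR-1*, star strands of other muscle hairpins, were undetermined on all 4 cards. Of the assays for other tissues, the 9 for embryonic stem cells were detectable in neither condition and 8 of them were undetermined on all 4 cards, as were miR-150* of blood cells and miR-124* of neurons. MiR-9*, made in neurons, was detectable in both conditions, at 24.66 and 25.05 with and 33.55 and 32.89 without pre-amplification. Of 4 assays for epithelial miRNAs only miR-141* was detectable, and only with pre-amplification, at 30.91 and 30.93 against 38.22 and 38.61. Array B held no assay for the lists of liver, endothelium and pancreas.

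The results turn on 15 miRNAs whose Ct, relative to the reference RNA MammU6, changed past the threshold of the test below. The sequences of those found in RefSeq are shown with the seed in capitals. The seed is bases 2 to 8 from the 5′ end, the part that pairs with target mRNAs. These 6 fell further than the reference with pre-amplification:
miR-106b*: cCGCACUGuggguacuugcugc
miR-15b*: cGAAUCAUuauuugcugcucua
miR-28*: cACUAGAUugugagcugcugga
miR-760: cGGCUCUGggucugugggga
miR-322*: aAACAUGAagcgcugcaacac
miR-700: cACGCGGGaaccgaguccacc
These 4, of the 9 that fell less, were matched:
miR-692: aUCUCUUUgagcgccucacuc
miR-704: aGACAUGUgcucugcuccuag
miR-678: gUCUCGGUgcaaggacuggagg
miR-15a*: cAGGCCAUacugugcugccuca
No seed was shared among these 10. In build GRCm38.p6 miR-106b* lies at chr5:138165746-138165767, miR-15b* at chr3:69009813-69009834, miR-28* at chr16:24827908-24827929, miR-322* at chrX:53054269-53054289 and miR-15a* at chr14:61632038-61632059. MiR-760, at chr3:122293615-122293634, lies on the same chromosome as miR-15b*, and miR-700, at chr4:135416561-135416581, is a small RNA cloned from mouse. MiR-692 has 3 copies, on chromosomes 4, 13 and 17. Of the 97 detectable mouse miRNAs, 96 had a target sequence on the microarray of the series and 77 of these matched a RefSeq mature miRNA exactly.

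Raw Ct fell for every miRNA detectable in both conditions, and the values of the 2 conditions overlapped for 0 of the 60. The median change, with minus without pre-amplification, was -7.77 cycles. By the study's methods the pre-amplified cDNA was also diluted before loading, so the change is a net one. The first cards of the conditions gave -7.95 and the second cards -7.58. By the study's scheme, the cards of a number share a reverse transcription reaction. The quartiles over the 60 were -8.32 and -7.32 cycles, and 42 of 60 lay within 1 cycle of the median. The range was far wider, from -10.0 for miR-106b* to -2.93 for rno-miR-463. The raw change, negative for a fall, showed little relation to abundance. Between it and the mean Ct without pre-amplification, Pearson's r was -0.0222 and Spearman's rho -0.0610. These were taken over 60 miRNAs, which all share the same 4 cards. The spread of the raw change across miRNAs did differ by level. Its SD was 0.817 cycles over 17 miRNAs at a mean Ct up to 30 without pre-amplification and 1.43 over the other 43. The order of the falls recurred between the reactions, with r = 0.828 and rho = 0.745 over the 60 miRNAs. These coefficients describe the miRNAs and carry no test.

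**Figure D1:**
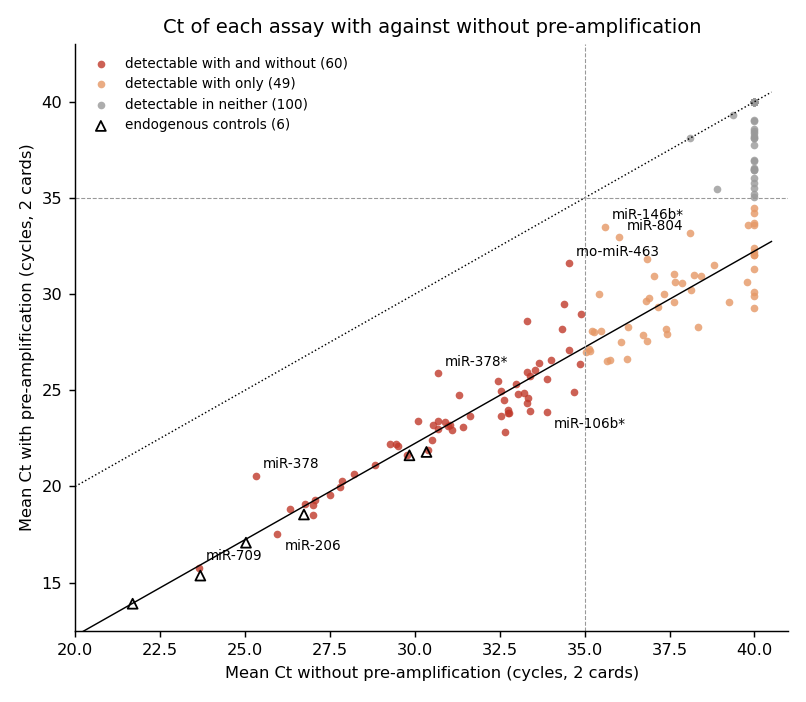
Mean Ct of each assay with pre-amplification (vertical axis, cycles) against without it (horizontal axis, cycles), 2 cards each. The solid line lies 7.77 cycles under the dotted line of equal Ct, dashed lines mark a Ct of 35, and most miRNAs follow the solid line while miR-378, miR-378* and rno-miR-463 lie above it and miR-106b* below it.

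**Figure D2:**
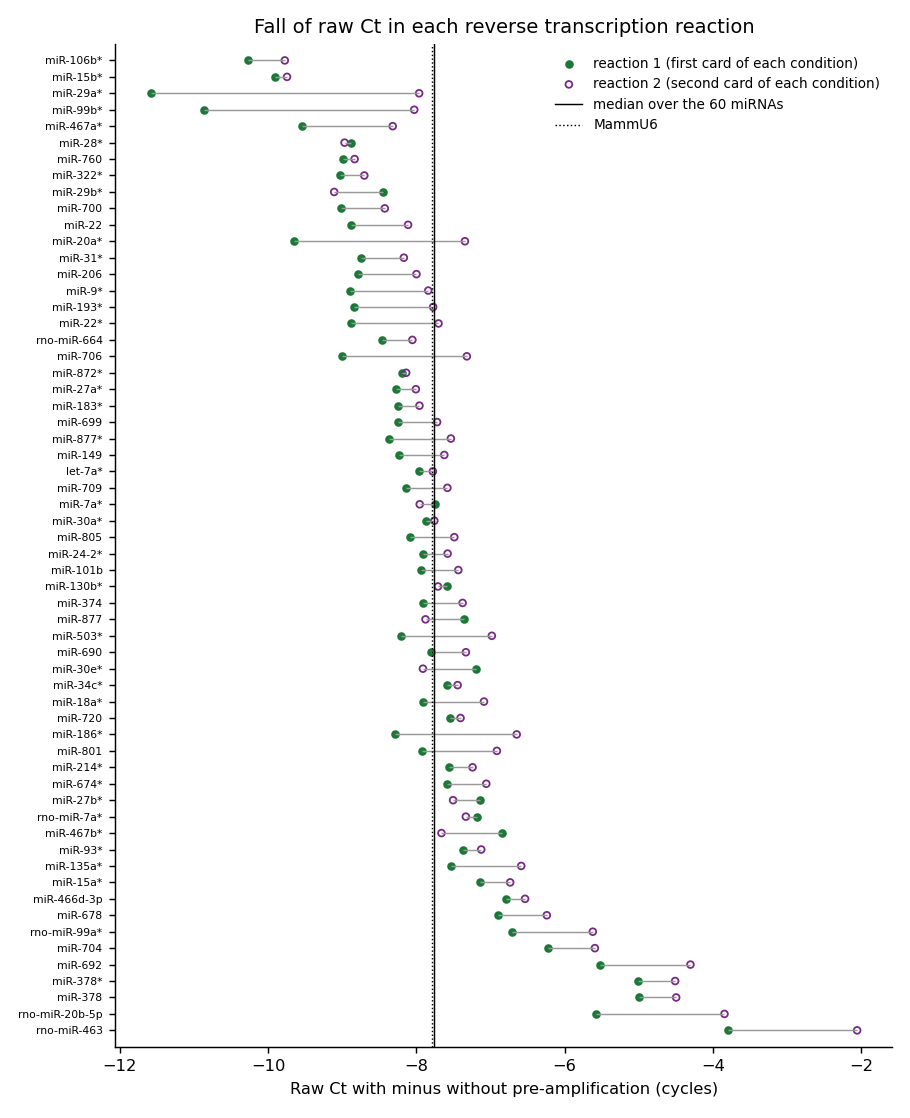
Raw Ct with minus without pre-amplification (cycles) for the 60 miRNAs detectable in both conditions, ordered by the mean of the 2 reverse transcription reactions, from miR-106b* at -10.0 to rno-miR-463 at -2.93. Each point is 1 card minus the card of the same reaction, and the vertical lines mark the median of the miRNAs and MammU6.

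The endogenous controls moved by about as much, but not equally. MammU6, a small nuclear RNA and the reference of the study, had Ct values of 13.80 and 14.01 with and 21.71 and 21.67 without pre-amplification, a change of -7.79 cycles. The other 5 endogenous controls are small nucleolar RNAs and the Y1 RNA, and changed by -7.95 to -8.55 cycles. SnoRNA202 read 15.00 and 15.74 with and 23.75 and 23.62 without pre-amplification, snoRNA429 17.03 and 17.13 against 25.17 and 24.89, and Y1 21.588 and 22.004 against 30.41 and 30.28. All 5 thus fell further than MammU6. SnoRNA135 stood at 18.27 and 18.82 with and 26.82 and 26.66 without pre-amplification, and U87 at 21.57 and 21.67 against 29.92 and 29.77. The plant control ath-miR159a remained at 40 on all 4 cards.

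Against MammU6 (ΔCt, the Ct of a miRNA minus that of MammU6 on its card) 15 of 60 miRNAs changed with pre-amplification at an adjusted p under 0.05 in limma, which is 25% of those tested. Of these, 9 (15.0%) had a higher ΔCt with pre-amplification, a lower relative level, and 6 (10.0%) had a lower ΔCt. The median change over the 60 miRNAs was 0.02 cycles. ΔCt of the 2 conditions did not overlap for 39 of 60 miRNAs (65.0%). With the shared reverse transcription reaction as a replicate block, 4 of 60 (6.67%) passed, 2 higher (3.33%) and 2 lower (3.33%). These were miR-378, miR-378*, miR-106b* and miR-15b*, each at an adjusted p of 0.0464. Without the first or the second card with pre-amplification 9 or 8 passed, and without the first or the second card not pre-amplified 19 or 32. In these fits the lone card of a condition was assumed to vary like the cards of the other, which alone gave the spread.

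The choice of reference set the balance of the calls. Against the mean of the other 5 endogenous controls, which fell by 8.25 cycles, the median change was 0.48 cycles and 26 of 60 miRNAs passed (43.3%), 23 higher (38.3%) and 3 lower (5.00%). Of the 15 called against MammU6, 12 were called again in the same direction, and miR-28*, miR-322* and miR-760 were not, at adjusted p-values of 0.0933, 0.0520 and 0.0721. With the mean of the card as the reference 20 passed (33.3%), 9 higher (15.0%) and 11 lower (18.3%), and these included all 15. The changes below are against MammU6.

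The largest shifts upward were of an abundant hairpin and of assays near the limit of detection. MiR-378, found in muscle and other tissues rich in mitochondria, had ΔCt values of 6.52 and 6.80 with and 3.61 and 3.64 without pre-amplification. The cards of each condition lay close together and the conditions were 3.04 cycles apart (standard error 0.198, 95% confidence interval 2.52 to 3.56, adjusted p = 0.00105). At a doubling per cycle this equals an 8.22-fold lower relative level with pre-amplification. MiR-378*, from the other arm of the same hairpin, had ΔCt values of 11.95 and 12.06 with and 9.05 and 8.91 without it, and changed by 3.03 cycles (standard error 0.184, adjusted p = 0.00105). In raw Ct the strands moved alike, by -4.75 and -4.76 cycles, although miR-378* was the rarer by over 5 cycles in each condition. MiR-378 was the 2nd most abundant of 209 assays without pre-amplification and the 11th with it. No other of the 17 miRNAs at a mean Ct of 30 or less without pre-amplification passed in the test over all 60.

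The remaining upward calls were of miRNAs at a mean Ct over 30 without pre-amplification. Rno-miR-463, a rat assay for a testis miRNA of the X chromosome, had ΔCt values of 17.61 and 17.78 with and 13.50 and 12.18 without pre-amplification, and changed by 4.86 cycles (standard error 0.468, adjusted p = 0.00265). Its raw Ct was 31.41 and 31.79 with and 35.21 and 33.85 without it, so it read near the limit without pre-amplification. With only the first card not pre-amplified it was beyond the limit and was not tested. The sequences of the rat assays were not compared with those of mouse miRNAs here. Rno-miR-20b-5p, a rat assay for a paralog of the miR-17-92 cluster, had ΔCt values of 14.25 and 15.11 with and 11.92 and 11.29 without pre-amplification, a change of 3.07 cycles (adjusted p = 0.00527). MiR-692 changed by 2.87 cycles, with ΔCt values of 15.27 and 15.87 with against 12.88 and 12.51 without it, and miR-704 by 1.88 cycles, with 14.96 and 15.19 against 13.28 and 13.13. The cards of the conditions stood well apart for each of these, which were picked by a test on the same cards. MiR-678 (1.22 cycles), miR-466d-3p (1.13) and miR-15a* (0.84) shifted least among the upward calls, at adjusted p-values from 0.0116 to 0.0257. MiR-466d-3p comes from a large group of repeated miRNAs in an intron of Sfmbt2, and its cards nearly coincided within each condition, at 9.50 and 9.53 with against 8.38 and 8.40 without pre-amplification.

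The 6 downward calls were all rare without pre-amplification, at a mean Ct over 32. MiR-106b*, the star strand of a hairpin in an intron of Mcm7, had ΔCt values of 9.82 and 10.11 with and 12.17 and 12.22 without pre-amplification. It changed by -2.23 cycles (standard error 0.200, adjusted p = 0.00265), a 4.70-fold higher relative level at a doubling per cycle. MiR-15b*, from an intron of Smc4, had 8.81 and 9.02 with against 10.81 and 11.10 without it, and changed by -2.04 cycles (standard error 0.211, adjusted p = 0.00265). It was the 20th most abundant of the 209 assays with and the 36th without pre-amplification. MiR-28* had 9.91 and 9.96 with against 10.88 and 11.26 without, a change of -1.14 cycles, and miR-760 had 9.79 and 10.02 against 10.88 and 11.20, a change of -1.13. MiR-322*, from a cluster that rises when myoblasts differentiate, changed by -1.08 cycles, with 9.63 and 9.90 against 10.74 and 10.94, and miR-700 by -0.94, with 10.55 and 10.84 against 11.65 and 11.60. Cards of the 2 conditions did not overlap for any of the 6, nor for 39 of all 60 miRNAs (65.0%). The 6 were picked by a test on these same cards, so their separation is no further result.

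**Figure D3:**
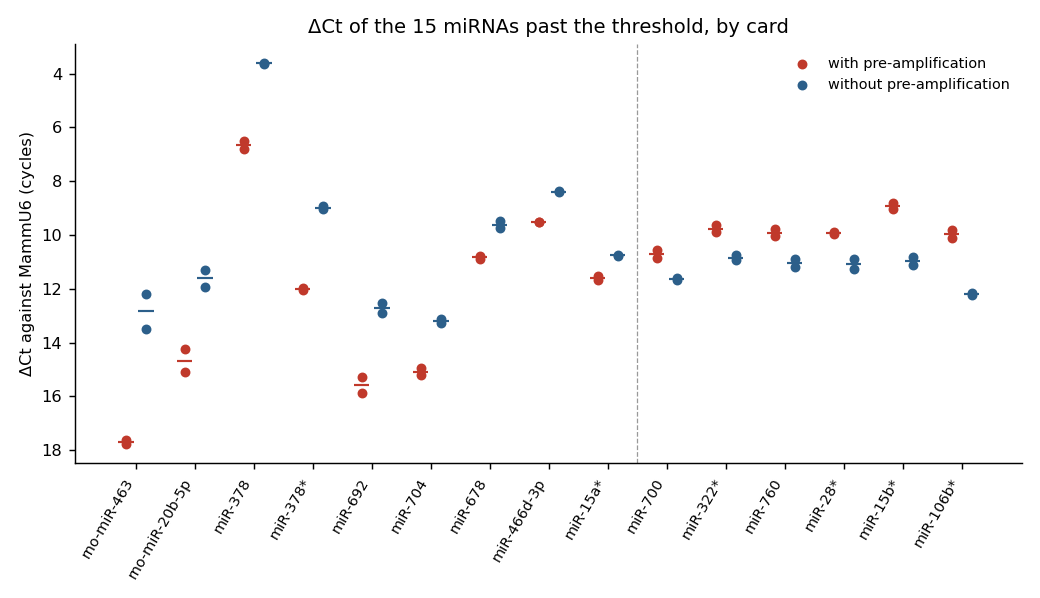
ΔCt against MammU6 (cycles, axis inverted so that more abundant lies higher) on each card for the 15 miRNAs past the threshold, cards with pre-amplification to the left of those without. Horizontal bars are means of 2 cards, and the dashed line parts the 9 miRNAs with a higher ΔCt with pre-amplification, led by rno-miR-463 at 4.86 cycles, from the 6 with a lower one, which end with miR-106b* at -2.23.

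Several large differences did not pass. MiR-29a* had a raw Ct of 24.67 and 25.16 with pre-amplification but of 36.25 and 33.12 without it, so that its ΔCt change of -1.99 cycles came with a spread of 3.13 cycles between the cards not pre-amplified. MiR-99b* had 23.79 and 24.09 with against 34.65 and 32.12 without, and changed by -1.66 cycles (adjusted p = 0.213). For both, the pre-amplified cards lay closer together than the cards not pre-amplified. Rno-miR-99a* had 27.44 and 28.91 with against 34.15 and 34.53 without, and changed by 1.62 cycles (adjusted p = 0.0675). Here the pre-amplified cards lay further apart.

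The 45 miRNAs not called were spread over all levels, with 16 at a mean Ct of 30 or less without pre-amplification, 11 over 30 to 32 and 18 over 32 to 35. Among the abundant ones, the 5 smallest ΔCt changes at a mean Ct of 30 or less without pre-amplification were those of miR-805 (-0.0010 cycles), miR-30a* (-0.03), miR-24-2* (0.04), miR-709 (-0.08) and miR-149 (-0.14). Changes as small were measured for rarer miRNAs, such as miR-7a* (-0.06) and let-7a* (-0.08). Against the other endogenous controls miR-805 passed, as did the abundant miR-374, miR-720 and miR-690, all with a higher ΔCt with pre-amplification. MiR-709, the most abundant miRNA in both conditions, had raw Ct values of 15.59 and 15.97 with and 23.74 and 23.55 without pre-amplification. Of the 10 most abundant miRNAs with pre-amplification 9 were also among the 10 most abundant without it, and only miR-30e* and miR-378 changed places. The list held miR-709, miR-206, miR-31*, miR-720, miR-699, miR-374, miR-805, miR-149 and miR-30a* in both conditions. MiR-720 has since been recognised as a fragment of a transfer RNA, and its assay read 18.74 and 18.96 with against 26.29 and 26.37 without. MiR-206 changed by -0.61 cycles (95% confidence interval -1.20 to -0.02, adjusted p = 0.129) and miR-31* by -0.68 (adjusted p = 0.0675). Both passed against the card mean, and when the test was limited to miRNAs with a mean Ct up to 30 or up to 32.

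Strands and neighbours in the genome are set beside each other here as a description. The miRNAs of a cluster are cut from 1 transcript, but all cards carried the same RNA. Both arms were detectable without pre-amplification for 3 hairpins. Besides miR-378, these were miR-22, whose strands changed in raw Ct by -8.50 (miR-22) and -8.29 cycles (miR-22*), and miR-877, with -7.62 (miR-877) and -7.95 cycles (miR-877*). The arms of each of these hairpins thus moved by much the same amount. Most miRNAs did so, since 42 of all 60 lay within 1 cycle of the median change of -7.77. Of the hairpins, only miR-378 had its arms outside that band. Members of clusters could lie further apart. Next to miR-106b* on chromosome 5, miR-93* (aCUGCUGAgcuagcacuucccg, chr5:138165536-138165557) changed in ΔCt by 0.54 cycles (95% confidence interval -0.04 to 1.11), against -2.23 for miR-106b*. Next to miR-322* on the X chromosome, miR-503* (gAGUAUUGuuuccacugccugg, chrX:53053987-53054008) changed by 0.19 cycles, against -1.08. In the miR-17-92 cluster miR-18a* changed by 0.29 and miR-20a* by -0.71 cycles, and neither passed. From chromosome 6, miR-29a* and miR-29b* changed by -1.99 and -0.99 cycles and neither passed. From chromosome 8, miR-27a* and miR-24-2* changed by -0.35 and 0.04. The differences between neighbours were not tested.

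Counted by family, the calls fell on both sides, beside 15.0% higher and 10.0% lower over all 60. Of 5 tested miRNAs from miR-17-92 and its paralogous clusters, 1 was higher (rno-miR-20b-5p) and 1 lower (miR-106b*), with a median change of 0.29 cycles against 0.02 over all 60. Of the 4 tested from the miR-15, miR-16, miR-322 and miR-503 group, 1 was higher (miR-15a*) and 2 lower (miR-15b* and miR-322*), with a median of -0.44. Of the 3 muscle miRNAs 2 were higher, both from the miR-378 hairpin. The 3 tested miRNAs of the Sfmbt2 intron comprised miR-466d-3p, which was called, and miR-467a* (-1.15) and miR-467b* (0.53), which were not and differ by 1 base (U18A, counted from the 5′ end of miR-467a*). Of 9 small RNAs cloned from mouse tissues, miR-676 to miR-721 by name, 3 were higher (miR-678, miR-692 and miR-704) and 1 lower (miR-700). No member passed in the let-7, miR-29, miR-30, miR-27, miR-24, miR-99 and miR-34 families. These lists, with 1 to 3 members tested each and 11 in all, are put together here because none held a call. Their share is thus set by the grouping and is no result beside the 25% over all 60. Of these 11, rno-miR-99a* and miR-34c* passed against the other endogenous controls. Of the 37 star strands tested 2 were higher and 4 lower (median -0.06), and of the 23 other strands 7 and 2 (median 0.14). Against the other endogenous controls the counts were 10 and 2 of the star strands and 13 and 1 of the other strands. Of the 5 rat assays 2 were higher and 0 lower. By level, 1 of 17 miRNAs was called at a mean Ct of 30 or less without pre-amplification, 3 of 14 over 30 to 32, and 11 of 29 over 32 to 35, beside 25% over all. This order rested on the reference and on the miRNAs tested together. Against the other endogenous controls 8 of 17, 7 of 14 and 11 of 29 passed. Tested on their own, 5 of the 17 at 30 or less passed (miR-378, miR-206, miR-31*, miR-135a* and miR-93*), and 12 of the 31 at 32 or less.

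Base composition overlapped between the calls. G and C made up a median of 52.4% of the bases in the 7 upward calls with a sequence (range 38.1% to 63.6%), 56.8% in the 6 downward calls (36.4% to 71.4%) and 45.5% in the 41 others (31.8% to 70%). Over the 54 miRNAs, the raw change (negative for a fall) and the share of G and C had an r of 0.129 and a rho of 0.187. The raw change and the length had an r of -0.136.

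The 49 miRNAs found with pre-amplification alone were not all silent without it. On the cards not pre-amplified, 29 of the 49 gave a Ct under 40 on both cards, 8 on 1 card and 12 on neither, and 13 had 1 card at 35 or less. All 49 gave a Ct on both pre-amplified cards. Over the 29 with a Ct on all 4 cards the median fall was -7.34 cycles, against -7.77 over the 60. That set leaves out miRNAs undetermined on a card not pre-amplified. Over all 49, with such wells at 40, the median was -7.80. The lowest Ct values among the 49 were those of rno-miR-352, at 26.30 and 26.71 with against 36.85 and 34.48 without pre-amplification, miR-425*, at 26.54 and 26.64 against 34.92 and 36.58, and miR-297a*, at 26.47 and 26.79 against 38.09 and 34.41. Their pre-amplified cards lay close together, while the cards not pre-amplified differed by more than 1 cycle for each. MiR-449c, at 26.87 and 27.07 with against 34.05 and 36.05, stood just beyond the limit without pre-amplification (mean 35.05), as did miR-33* and miR-26b* at 35.1 and 35.2. MiR-704, miR-20a* and miR-29a*, at 34.9, 34.8 and 34.7, lay just within it.

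The let-7 family, whose major strands are abundant in differentiated cells, was found mainly this way, beside 49 of all 209 assays. Of its 8 assays, all for star strands, let-7a* was detectable in both conditions, 6 with pre-amplification only and let-7b* in neither. Let-7i* had Ct values of 31.18 and 31.43 with pre-amplification and let-7g* of 31.79 and 32.62, and both were undetermined on both cards without it. The same held for miR-501-5p, at 29.23 and 29.30, rno-miR-125b*, at 29.70 and 30.13, and miR-701, at 29.92 and 30.26. For these the fall was not measured, since the undetermined wells were set at 40. By the study's methods the limit of detection stands for a single template molecule, so an undetermined well may have held no template. Let-7c-1* read 36.68 on the first card not pre-amplified and was undetermined on the second. With wells at 40 the fall came to 10.7 cycles for miR-501-5p and 10.1 for rno-miR-125b*. These values cannot be ranked against the measured fall of miR-106b*. MiR-16*, the neighbour of miR-15a*, and miR-17*, of the miR-17-92 cluster, were also among the 49. So were miR-470*, miR-878-3p and rno-miR-743a of the X-linked testis group, which had 6 assays.

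A few of the 49 barely gained. MiR-146b* had Ct values of 32.97 and 34.05 with and 36.16 and 35.02 without pre-amplification, a change of -2.08 cycles, and miR-804 had 32.65 and 33.25 against 35.21 and 36.83, a change of -3.07. Relative to MammU6 these are shifts of 5.71 and 4.72 cycles, beside 4.86 for rno-miR-463. These 3 miRNAs fell least among the 89 with a Ct on all 4 cards. Undetermined on all 4 cards were 77 assays, for which no fall can be measured.

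Detection can be set beside the microarrays of the same RNA, a readout without PCR and, by the study's methods, from more input RNA. A signal of 32 or more on both chips was found for 15 of 54 miRNAs detectable in both conditions (27.8%) and for 9 of the 17 at a mean Ct of 30 or less without pre-amplification (52.9%). It was found for 3 of 42 detectable with pre-amplification only (7.14%), namely let-7d*, miR-702 and miR-715, and for 4 of 85 detectable in neither (4.71%). Signals were 52112 and 58037 for miR-709, 3570 and 5499 for miR-206 and 382 and 290 for miR-378. On the pre-amplified cards 10 miRNAs stood ahead of miR-378, of which miR-709, miR-206 and miR-805 had a higher signal than miR-378 on both chips and the other 7, such as miR-699 (90.9 and 37.4) and miR-374 (32.4 and 183), a lower one. On the cards not pre-amplified only miR-709 stood ahead of it. Levels of different probes and assays carry their own efficiencies, so the orders are a description.

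The 2 cards of a condition differed by a median of 0.443 cycles with pre-amplification, over 109 detectable miRNAs, and 0.276 without it, over 60. The pre-amplified cards were offset from each other as a whole. On the second pre-amplified card the Ct was higher for 57 of the 60 miRNAs detectable in both conditions, by a median of 0.415 cycles (quartiles 0.335 and 0.496), and MammU6 was higher by 0.209 and the other endogenous controls by 0.104 to 0.731. ΔCt against MammU6 was higher on the second pre-amplified card for 56 of 60, by a median of 0.206 cycles. Once the median of the card differences was taken off, the median absolute difference over these 60 miRNAs was 0.0815 cycles with and 0.280 without pre-amplification. The 3 miRNAs that went against the offset were miR-30e*, at 20.59 and 20.01, miR-7a*, at 23.69 and 22.70, and the rat assay rno-miR-7a*, at 23.48 and 23.37. MiR-30e* (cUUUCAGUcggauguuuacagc) and miR-30a* (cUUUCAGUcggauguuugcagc) share a seed and differ by 1 base (G18A, counted from the 5′ end of miR-30a*), and miR-30a* read 19.94 and 20.03.

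By level, the difference between the pre-amplified cards was 0.352 cycles up to a mean Ct of 20 (9 miRNAs), 0.443 over 20 to 25 (35), 0.429 over 25 to 30 (39) and 0.803 over 30 to 35 (26). Between the cards not pre-amplified it was 0.143 over 25 to 30 (16 miRNAs) and 0.377 over 30 to 35 (43). Array A was not pre-amplified, holds other miRNAs and, by the study's methods, took more input RNA. Between its reactions the difference was 0.153 on day 1 and 0.129 on day 2 over 25 to 30, and 0.574 and 0.494 over 30 to 35. At 25 to 30 cycles the pre-amplified cards thus differed most, by about as much as their offset. The widest gaps were at the limit of detection, for miR-470* (34.30 and 30.54) and miR-138* (32.20 and 34.97) with pre-amplification, and for miR-29a* and miR-99b* without it, whose values are above.

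**Figure D4:**
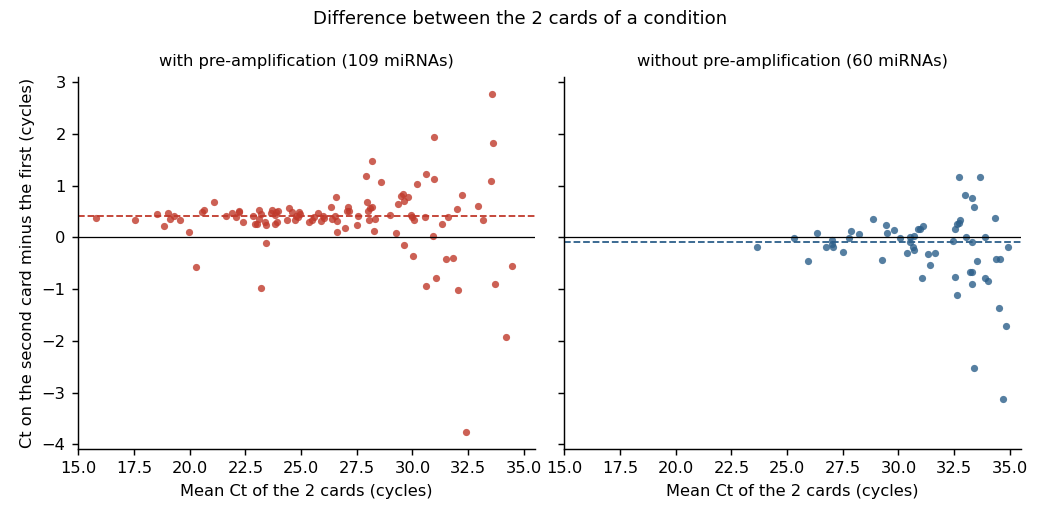
Ct on the second card minus the first (cycles) against the mean Ct of the 2 cards, for 109 miRNAs with (left) and 60 without pre-amplification (right). Dashed lines are medians, at about 0.4 cycles with pre-amplification and near 0 without, and the scatter about them widens beyond a Ct of about 30.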

How the data were processed

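Array B was run as TaqMan low-density cards on proliferating C2C12 RNA. The authors deposited raw Ct values and ΔCt, Ct minus MammU6, for 216 assays per card. The ΔCt was recomputed here and equalled the deposited one within 0.002 cycles in 858 of 860 wells. The exceptions lay on the first pre-amplified card, U87 (deposited ΔCt 4.54, from raw Ct 7.77) and miR-30a* (5.87 and 6.13). The authors also deposited a background-subtracted microarray intensity, averaged here over the spots of a probe. Target sequences came from the microarray and were matched to RefSeq (GRCm38.p6).

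Changes are with minus without pre-amplification. The test on ΔCt took miRNAs whose mean Ct was 35 or less without pre-amplification and ran in limma 3.58.1 (R 4.3.3). It used Benjamini-Hochberg adjustment over all 60 and a threshold of 0.05. The step was also run on simulated data with independent errors, equal in size for every miRNA, and shifts larger than the smallest called here. That run says nothing of calls as small as those. The study's scheme pairs cards of a number by reverse transcription reaction, while deviations of paired cards correlated at -0.0131 over 60 miRNAs. The reaction as a block, other references, limits on Ct, the methods' t-test and each card left out were alternatives. MiRNAs named were those past the threshold, the extremes of Ct, change and card difference, both arms of hairpins and members of lists by family and tissue, all chosen with earlier results of these data known. Others were named after their values were seen. The number of cards limits the precision. Sequences of miR-378 and miR-378* are not given here.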

Additional observations from a re-analysis of the deposited data

How the results depend on the processing

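The number of miRNAs past the threshold, 15 of 60 against MammU6, depended on the reference, the cards and the test. It was 26 with the other endogenous controls, with U87 or without it (chosen after seeing the data), 20 with the card mean and 19 with a prior that follows Ct. A Ct limit of 35 on every card gave 16. It was 12 of 31 at a mean Ct of 32 or less, 5 of 17 at 30 or less and 13 of 89 with a Ct on all 4 cards. With all 209 assays it was 115, since wells at 40 in both conditions rise by construction when MammU6 is subtracted. The replicate block gave 4 and the methods' t-test 3 at its threshold and 2 after adjustment. Leaving out a card gave 8 to 32, with 32 without the second card not pre-amplified. The lone card of a condition was then assumed to vary like those of the other condition. None of the 15 changed direction without 1 card where it was tested. This was fixed in advance, since ΔCt of the 2 conditions did not overlap for any of them. The deposited ΔCt of miR-30a* (also tried after seeing the data) changed no count. The median ΔCt change of 0.02 cycles was 0.48 with the other controls, 0.49 without U87, -0.12 with the card mean, 0.14 over 89 miRNAs, 2.999 over 209 and -0.0025 to 0.07 without 1 card. The median raw change stayed between -7.87 and -7.63. Detectable with and without pre-amplification were 97 and 31 miRNAs at a mean Ct of 32 or less, 108 and 57 at 35 or less on both cards, and 119 and 89 at any Ct under 40 on both cards. Centring the card differences on their median moved the median card difference with pre-amplification to 0.132 and without it to 0.280. With 2 cards a condition, the smallest shift that passed was 0.84 cycles, of miR-15a*.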

Other observations

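Array B held 8 miRNA names in both a mouse and a rat assay, and the assays of a pair did not always read alike. The pairs were made by name, and their mouse and rat sequences were not compared. The miR-7a* assays were close, at raw Ct values of 23.69 and 22.70 (mouse) and 23.48 and 23.37 (rat) with and of 31.43 and 30.66 (mouse) and 30.67 and 30.70 (rat) without pre-amplification. The miR-125b* assays read 29.02 and 29.66 (mouse) and 29.70 and 30.13 (rat) with pre-amplification, while without it the mouse assay gave 37.40 and 36.93 and the rat assay no Ct. For miR-135a*, miR-20a* and miR-24-1* the mouse assay was detectable with pre-amplification and the rat assay was undetermined on all 4 cards. For miR-28*, called in the mouse assay, the rat assay gave a single Ct, 30.43 on the second pre-amplified card, and none elsewhere. Both assays of miR-136* and miR-382* were undetermined on all 4 cards.

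Among the 54 tested miRNAs with a sequence, not all of which are shown, the letters GCUGC, read on the miRNA strand, stood in 4 of 6 downward calls (miR-106b*, miR-15b*, miR-28* and miR-322*), 1 of 7 upward calls (miR-15a*) and 2 of 41 other tested miRNAs (miR-22 and miR-27a*), 7 in all. The letters were noticed after the values were seen, and the count is a description without a test. Among miRNAs detectable with pre-amplification only they stood in 3 of 42, whose raw Ct fell by a median of 7.31 cycles.

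The mean Ct of a pair of assays at the end of the run was nearly the same in both conditions. Rno-miR-493 read 39.26 and 36.92 with and 36.20 and 40 without pre-amplification, and miR-327 40 and 38.63 with and 40 and 38.71 without it. These means rest in part on undetermined wells at 40. For rno-miR-493 the first cards changed by 3.06 cycles and the second cards by -3.08. Other late assays fell on both pairs of cards. MiR-696 read 31.10 and 30.16 with and 40 and 39.54 without pre-amplification. Let-7d* read 31.72 and 31.30 with and 38.02 and 39.61 without it.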
